A study of Homo sapiens with 13 samples.

Results

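Interferon-stimulated genes are the genes that cells switch on when interferon reaches their surface, and 37 of them were followed in a human breast epithelial line during oncogenic transformation and after over-expression of a long non-coding RNA. They were picked by gene symbol, and 36 of the 37 had a row among the 38369 gene rows. The transcription factor IRF9 had none and was not analysed here. After a filter on low values, 30 members were tested across the tamoxifen time course and 28 in the over-expression experiment. At 4 h after tamoxifen 6 of 30 members (20%) rose, led by GBP1, against 3.15% of all genes tested. At 36 h GBP2, IRF7, DDX58 and HERC5 stood above 0 h, 13.3% of the members, near the 9.99% of all genes. In cells transduced with LINC00520, 6 of 28 members rose (21.4%, against 25.2% of all genes) and 10 fell (35.7%, against 24.8%), all but GBP2 and IFI27 by less than 2-fold.

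As background, type I and type III interferons signal through receptors that use the kinases JAK1 and TYK2 to activate factors, STAT2 among them, that join IRF9 and bind interferon-stimulated response elements. Interferon gamma signals through JAK1 and JAK2 to factors that bind gamma-activated sites and induce IRF1 and the guanylate-binding proteins. Many of the genes also respond to IRF1, IRF3, IRF7 or NF-kB without interferon, and their products detect viral RNA, block its translation, tag proteins with ISG15 or act on intracellular pathogens.

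MCF10A is a spontaneously immortalised, non-tumorigenic human mammary epithelial line, although the labels give its cell type as breast cancer. MCF10A-Src cells were profiled by polyA RNA-seq at 0 h (1 library), 4 h (2 libraries), 12 h (1 library) and 36 h (2 libraries) after tamoxifen, which in this line activates a Src kinase fused to an oestrogen receptor domain. Parental MCF10A cells were profiled 72 h after transduction with LINC00520 (2 libraries), against 3 untransduced libraries whose descriptions call them mock transduced. All cells were grown with serum, hydrocortisone, cholera toxin, EGF and insulin, no untreated later time points were used, and the labels do not tell whether replicates are separate cultures, so the p-values rest on a spread that may be only technical. The effect of Src and that of time in culture or of tamoxifen itself therefore cannot be told apart, nor can the effect of LINC00520 and that of transduction, since the 2 libraries with a control lincRNA were not analysed here. Libraries held 12.6 to 52.3 M fragments in the time course and 22.9 to 36.4 M fragments in the over-expression experiment. The row that carries LINC00520, linc-TBPL2-2, had 1122 and 1031 fragments in the transduced libraries, against 5, 6 and 2 in the untransduced ones.

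The 10 breast epithelial markers looked for, keratins, adhesion genes and TP63, were all detected in each library. Of 15 immune and blood markers, CD2, MS4A1, CLEC4C and NKG7 were at 0 fragments in all 11 libraries, and CD3E and CD3D had at most 1. Levels here are in CPM, fragment counts scaled to a common library size with edgeR's TMM factors. The summed level of the immune list, carried by CD68 and CD14, was 16.5 CPM at 0 h, 20 to 22.8 CPM at 4 h, 27.6 CPM at 12 h and 67.9 to 106.5 CPM at 36 h.

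Members share sequence that the choice by symbol did not use. RefSeq promoter windows (build GRCh38.p14, the 250 bases before the annotated start) were found for 28 of the 36 members, and the deposited tables themselves are on hg19. The core of the interferon-stimulated response element, GAAA, any 2 bases and GAAA again on either strand, was found in 16 of the 28 (57.1%), against 839 of 27305 promoters overall (3.07%). The gamma-activated site, TTC, any 3 bases and GAA, was found in 7 (25%), against 1850 overall (6.78%), and both were found in 4 (14.3%), against 79 overall (0.289%). No test was run on these shares, matches to the patterns may overlap, and a match in such a window is a description and not a bound site. The 6 windows below belong to members whose transcripts passed a test in one of the comparisons, and capitals mark every match to either pattern.

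GBP1, chr1:89065209-89065458, minus strand: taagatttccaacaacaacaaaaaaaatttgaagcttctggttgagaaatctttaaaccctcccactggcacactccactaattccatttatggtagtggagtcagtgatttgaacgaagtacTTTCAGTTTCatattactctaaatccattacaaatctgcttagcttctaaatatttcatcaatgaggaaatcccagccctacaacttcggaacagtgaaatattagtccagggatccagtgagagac
IRF1, chr5:132490774-132491023, minus strand: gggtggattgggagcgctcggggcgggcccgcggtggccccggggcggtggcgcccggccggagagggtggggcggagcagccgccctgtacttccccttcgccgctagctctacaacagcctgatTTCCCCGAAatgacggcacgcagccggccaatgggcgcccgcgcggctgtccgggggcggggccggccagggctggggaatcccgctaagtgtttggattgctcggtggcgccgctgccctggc
IFIT5, chr10:89414318-89414567, plus strand: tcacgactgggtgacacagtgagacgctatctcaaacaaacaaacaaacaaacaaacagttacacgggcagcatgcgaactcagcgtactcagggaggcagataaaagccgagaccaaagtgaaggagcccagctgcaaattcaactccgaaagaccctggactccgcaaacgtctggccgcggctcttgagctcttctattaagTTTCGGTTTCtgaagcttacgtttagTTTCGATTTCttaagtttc
HERC5, chr4:88456869-88457118, plus strand: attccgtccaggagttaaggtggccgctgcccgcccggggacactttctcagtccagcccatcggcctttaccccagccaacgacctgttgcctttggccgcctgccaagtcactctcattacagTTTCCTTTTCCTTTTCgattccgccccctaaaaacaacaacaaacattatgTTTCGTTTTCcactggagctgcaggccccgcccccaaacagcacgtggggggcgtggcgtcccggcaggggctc
OAS1, chr12:112906712-112906961, plus strand: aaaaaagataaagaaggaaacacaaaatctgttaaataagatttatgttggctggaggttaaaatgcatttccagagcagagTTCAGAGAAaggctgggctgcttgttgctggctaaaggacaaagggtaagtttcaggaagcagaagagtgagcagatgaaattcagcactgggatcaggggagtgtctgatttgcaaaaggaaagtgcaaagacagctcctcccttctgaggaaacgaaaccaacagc
IFI27, chr14:94110486-94110735, plus strand: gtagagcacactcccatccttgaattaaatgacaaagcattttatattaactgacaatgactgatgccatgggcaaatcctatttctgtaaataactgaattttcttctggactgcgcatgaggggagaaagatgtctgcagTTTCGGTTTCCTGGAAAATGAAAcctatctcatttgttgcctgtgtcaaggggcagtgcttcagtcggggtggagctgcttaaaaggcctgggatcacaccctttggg

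GBP1 holds 1 response element core, beginning 127 bases before the start, and IFIT5 holds 2, beginning 45 and 19 bases before it. HERC5 holds 3, of which the 2 farthest from the start overlap. IRF1 holds a gamma-activated site beginning 124 bases before the start and no response element core, and OAS1 likewise holds only a gamma-activated site, beginning at 168. IFI27 holds 2 response element cores and a gamma-activated site that overlaps both. No match to either pattern lay in the windows of CMPK2, DDX58, HERC6, EIF2AK2, PARP9, RSAD2, MX1, XAF1 or SAMD9L. The RSAD2 window lies below the CMPK2 window on chromosome 2, whereas the deposited RSAD2 row begins beyond the end of the CMPK2 row. That window, counted among the 28, thus belongs to another start, and the sequence before the deposited RSAD2 row was not examined.

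Levels between genes were compared per transcript length, in the deposited FPKM (fragments scaled to transcript length and library size). In untransduced MCF10A cells TRIM22, a restriction factor of the tripartite motif family, had the most, at 30.1, 30.9 and 29.1 FPKM. EIF2AK2, the double-stranded RNA-dependent kinase PKR, followed at 14.9 to 15.4 FPKM, above the range of BST2 (tetherin, which holds budding virions at the cell surface) at 12.2 to 13.9. The range of BST2 overlapped those of OAS3, IFIT5 and PARP14, and the ranges of IFIT5 and PARP14 overlapped each other. OAS3, at 12.84 to 13.24 FPKM, lay above IFIT5, at 11.29 to 12.77 FPKM. Leaving out IFI27, whose FPKM and fragments disagree there, BST2 led in the single 0 h library of MCF10A-Src cells with 47.9 FPKM, then PARP14 with 29.4 and EIF2AK2 with 28.8, and TRIM22 had 5.98. The tables of the 2 experiments were normalised separately, so this contrast in TRIM22 between them was not tested.

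At the other end, the antiviral GTPase MX2 had 4 fragments over all libraries of each experiment, and the apoptosis-linked XAF1 had 3 fragments in the over-expression experiment and 6 in the time course. OAS2, MX1, RSAD2 and SAMD9L, together with MX2 and XAF1, stayed under the filter in both experiments, and CMPK2 and HERC5 passed it in the time course only. RSAD2 (viperin, a radical SAM enzyme) was at 0.473 CPM at 0 h, 2.33 and 2.84 at 4 h, 0.424 at 12 h, and 1.01 and 1.71 at 36 h, and was not tested here. The 2 libraries at 4 h held the highest values of RSAD2. GBP2 shares its row with GBP7 and TRIM22 with OR56B1, and reads of close paralogs such as the IFIT and GBP genes may have been split by the authors' counting, so these values are those of the deposited rows. The 4 IFIT rows carry one shared interval on chromosome 10, 90973327 to 91180758 (hg19).

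**Figure D1:**
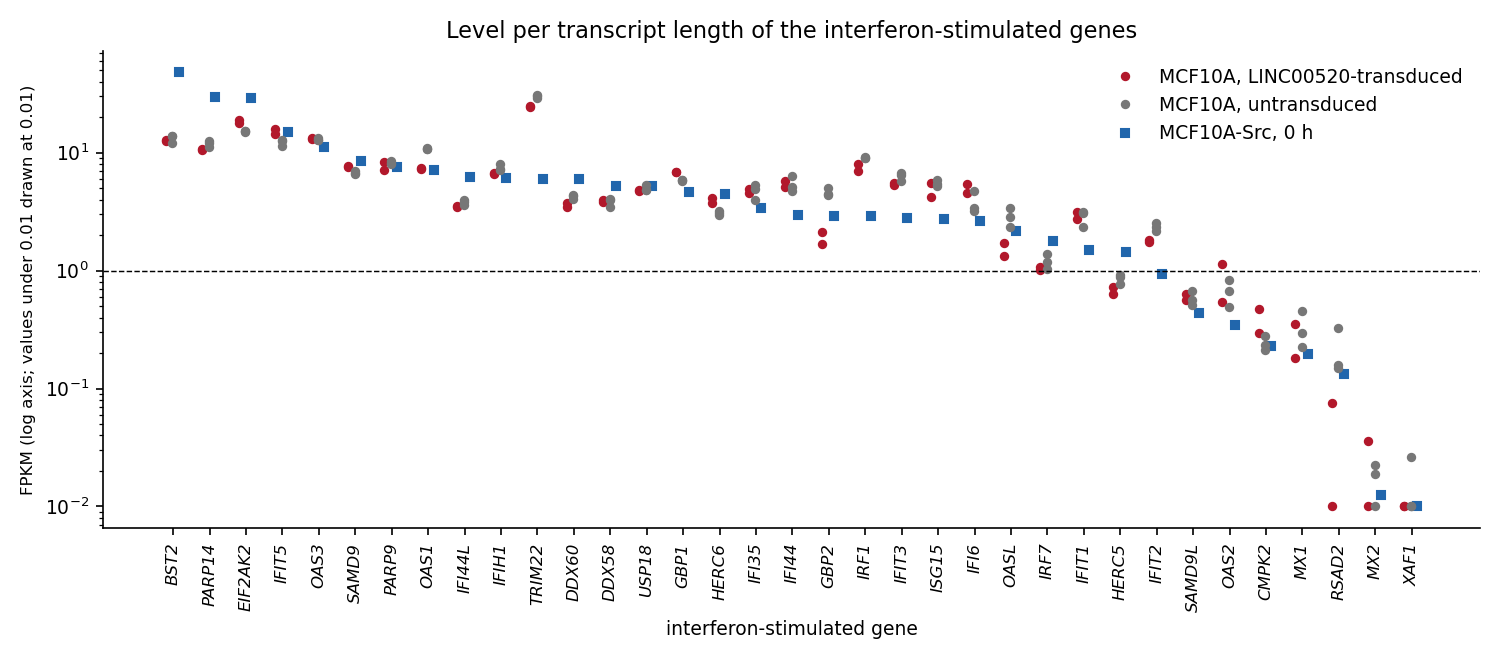
Deposited FPKM (log axis) of 35 members, with each point 1 library: LINC00520-transduced and untransduced MCF10A cells and MCF10A-Src cells at 0 h, which come from separately normalised tables. The dashed line marks the filter value of 1 FPKM, BST2 stands at 47.9 in MCF10A-Src cells and MX2 and XAF1 lie near 0; IFI27 is left out because its FPKM and fragments disagree in the time course.

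At 4 h against 0 h, 6 of the 30 tested members rose (20%) and 0 fell, where over all 15572 genes tested 3.15% rose and 3.09% fell. The 6 were the GTPases GBP1 and GBP2, the transcription factor IRF1, the mitochondrial nucleotide kinase CMPK2, IFIT5, which binds viral RNA ends, and OASL, which helps the RNA sensor RIG-I. The median member changed by 0.37 on the log2 scale, against 0.01 for all genes, and 22 members lay above 0. Of the 10 epithelial markers 5 rose as well and 0 fell (median 0.72), with a summed level of 8679 CPM at 0 h, 13290 to 13510 CPM at 4 h, 10740 CPM at 12 h and 9071 to 10140 CPM at 36 h, and the part of this in the members' changes was not tested. The test was edgeR's quasi-likelihood test on rounded fragments, with Benjamini-Hochberg adjustment over all genes and a threshold of 0.05.

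GBP1, a guanylate-binding protein used in the field as a readout of interferon gamma and inflammatory cytokines, had 14.2 CPM at 0 h, 85.9 and 103 at 4 h, 29.6 at 12 h, and 16.6 and 13.4 at 36 h. Both 4 h libraries stood above every other library, and the 36 h values lay on either side of the 0 h value. The rise at 4 h was 6.66-fold (log2 2.73, SE 0.256, edgeR adjusted p = 0.00213). IRF1, which binds response elements itself, had 8.13 CPM at 0 h, 24.2 and 19.4 at 4 h, 21.6 at 12 h, and 7.1 and 5.88 at 36 h. Its 4 h and 12 h libraries were all above its 0 h and 36 h libraries, with a 2.68-fold rise at 4 h (log2 1.42, SE 0.265, edgeR adjusted p = 0.0229). CMPK2 had 0.631 CPM at 0 h, 3.01 and 2.72 at 4 h, 3.08 at 12 h, and 1.45 and 1.33 at 36 h, and it rose 4.51-fold at 4 h (log2 2.17, SE 0.382, edgeR adjusted p = 0.0194). Like IRF1 it was as high at 12 h as at 4 h, but its 36 h libraries stayed above the 0 h library. CMPK2, counted among the 6, entered the tests only through groups where it is high, since it reached 1 FPKM in the first 4 h library and at 12 h alone; it kept its call at 4 h with no filter (edgeR adjusted p = 5.08e-05).

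GBP2 had 7.73 CPM at 0 h, 15.2 and 19.9 at 4 h, 10.1 at 12 h, and 20.9 and 21.9 at 36 h. Its 4 h and 36 h libraries were above the 0 h and 12 h libraries, and its 4 h rise was 2.27-fold (log2 1.19, SE 0.26, edgeR adjusted p = 0.0388). IFIT5 had 40.4 CPM at 0 h, 72.1 and 101 at 4 h, 37.5 at 12 h, and 27.1 and 32.3 at 36 h. OASL had 3.54 CPM at 0 h, 7.32 and 10.3 at 4 h, 3.61 at 12 h, and 3.24 and 3.23 at 36 h. Both were high in the 4 h libraries alone, and both passed narrowly, IFIT5 with a 2.15-fold rise (log2 1.10, SE 0.261, edgeR adjusted p = 0.0489) and OASL with a 2.49-fold rise (log2 1.31, SE 0.312, edgeR adjusted p = 0.0494).

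Among the members used most often as markers of an interferon response, ISG15, the ubiquitin-like modifier, had 1.09 CPM at 0 h, 1.76 and 2.8 at 4 h, 2.16 at 12 h, and 2.13 and 3.04 at 36 h. All later libraries of ISG15 were above the 0 h library, but at 4 h its log2 difference of 1.08 (SE 0.432) did not pass (edgeR adjusted p = 0.177). IRF7 differed by 0.14 (SE 0.27, edgeR adjusted p = 0.783) and IFI27 by 0.37 (SE 0.468, edgeR adjusted p = 0.662). DDX58, which encodes RIG-I, missed the threshold at 4 h (log2 1.01, SE 0.249, edgeR adjusted p = 0.0546). The authors' deposited table called 6 members significantly higher at 4 h, with GBP1, IRF1, CMPK2 and OASL among them and with DDX58 and RSAD2 in place of GBP2 and IFIT5, and 0 significantly lower. How many of all genes the authors called was not counted here, for this or any other comparison. The 0 h group is 1 library, whose spread is taken from the pairs at 4 h and 36 h, and all comparisons with it share it. Leaving out either 4 h library changed which members passed, with ISG15 at a log2 difference of 1.36 without the first. The share of all genes that passed in those fits was not counted here. With limma on log2(FPKM + 1) only GBP1 kept its call.

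**Figure D2:**
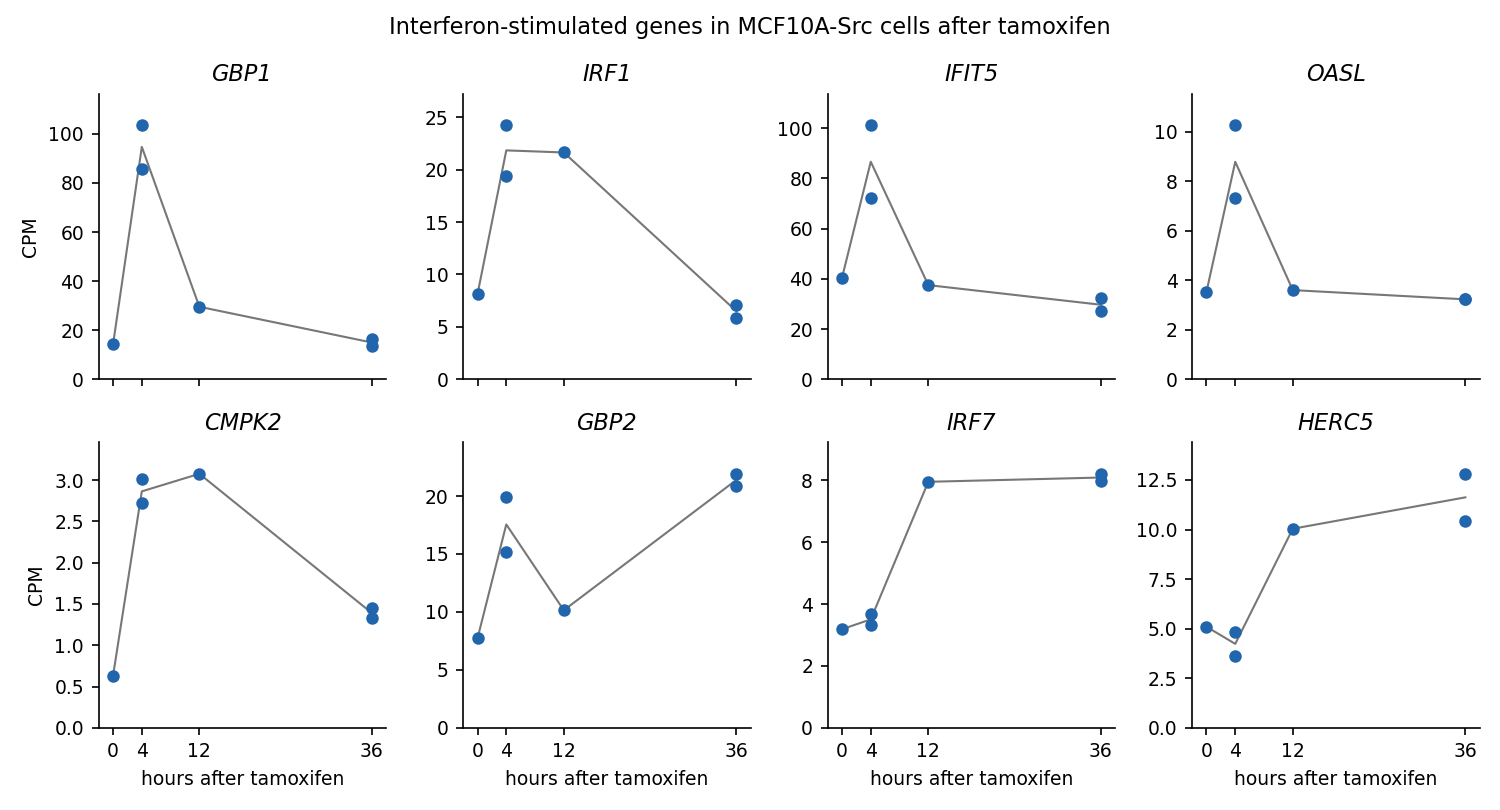
CPM of 8 members against hours after tamoxifen, with each point 1 library and the line through the mean of each time. GBP1, IFIT5 and OASL are high at 4 h alone, IRF1 and CMPK2 at 4 h and 12 h, and IRF7 and HERC5 at 12 h and 36 h; IRF7 has 8.21 and 7.97 CPM at 36 h, against 3.19 CPM at 0 h.

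At 12 h against 0 h, which is 1 library against 1, CMPK2 and IRF1 were the 2 of 30 members that rose (6.67%), and 0 fell. Over all genes 3.04% rose and 1.2% fell. CMPK2 was higher by 2.28 on the log2 scale (SE 0.414, edgeR adjusted p = 0.0221) and IRF1 by 1.41 (SE 0.291, edgeR adjusted p = 0.0368). The 12 h library is one of the 2 that carried CMPK2 past the filter, and with no filter its adjusted p was 0.000169. At the same time IRF7, the factor that amplifies type I interferon production, was at 1.32 (SE 0.301, edgeR adjusted p = 0.0539). ISG15 was at 0.99 (SE 0.485, edgeR adjusted p = 0.321) and IFI27 at -0.22 (SE 0.565, edgeR adjusted p = 0.868). The median member was at 0.21 and the median gene at -0.03. The authors' deposited table called IRF1, CMPK2, DDX58, IRF7 and IFI35 significantly higher at 12 h, 5 in all, and 0 significantly lower. How many of all genes it called was not counted here. The spread here comes from the 4 h and 36 h pairs, and leaving out either 4 h library let further members pass, IRF7 among them. The share of all genes that passed in those fits was not counted here. With limma on FPKM 0 members passed, and the share of all genes that passed with it was not counted either.

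At 36 h against 0 h, 4 of 30 members rose (13.3%) and 0 fell, where 9.99% of all genes rose and 9.36% fell, so the share of members that rose was close to that of all genes. GBP2 was higher by 1.47 (SE 0.264, edgeR adjusted p = 0.00775), with the library values given above and both 36 h libraries above 0 h. IRF7 had 3.19 CPM at 0 h, 3.32 and 3.69 at 4 h, 7.95 at 12 h, and 8.21 and 7.97 at 36 h. Its 12 h and 36 h libraries were all above its 0 h and 4 h libraries, with no overlap, and at 36 h it was higher by 1.34 (SE 0.276, edgeR adjusted p = 0.0131). DDX58 had 20.5 CPM at 0 h, 37.7 and 44.9 at 4 h, 43.7 at 12 h, and 49.4 and 37.3 at 36 h. Every library after tamoxifen was above the 0 h library for DDX58, and the change passed at 36 h (log2 1.08, SE 0.251, edgeR adjusted p = 0.0214). HERC5, the main enzyme that attaches ISG15 to proteins in human cells, had 5.1 CPM at 0 h, 3.63 and 4.84 at 4 h, 10 at 12 h, and 10.4 and 12.8 at 36 h, with a rise of 1.18 at 36 h (SE 0.294, edgeR adjusted p = 0.028).

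ISG15 itself was at 1.21 at 36 h (SE 0.443, edgeR adjusted p = 0.0949) and IRF1 at -0.31 (SE 0.258, edgeR adjusted p = 0.43). IFI27, a small membrane protein of mitochondria, had 0.578 CPM at 0 h, 0.778 and 0.721 at 4 h, 0.495 at 12 h, and 1.4 and 1.61 at 36 h. Its highest libraries were those at 36 h, at a log2 difference of 1.36 that did not pass (SE 0.459, edgeR adjusted p = 0.0754). These levels of IFI27 rest on 33 fragments at 0 h, 15 and 17 at 4 h, 14 at 12 h, and 29 and 17 at 36 h, and the deposited FPKM of the same libraries, 30.2, 2.01, 25.8, 51.9, 21.8 and 182 in that order, do not follow them. The authors' deposited table called 6 members significantly higher at 36 h, GBP2, IRF7 and DDX58 with MX1, PARP14 and IFI35, and 0 significantly lower. How many of all genes it called was not counted here. MX1, under the filter here, had 2.32 and 1.8 CPM at 36 h, against 0.666 CPM at 0 h.

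The immune marker sum given above moves with the 36 h libraries, through CD68 (log2 2.92, SE 0.402, edgeR adjusted p = 0.00226) and CD14 (1.43, SE 0.257, edgeR adjusted p = 0.00751), while PTPRC had 2 and 0 fragments at 36 h, against 26 at 0 h; the part of this in the members' changes was not tested. The summed level of 9 fibroblast and endothelial markers also moves with them, at 85.4 CPM at 0 h, 85.3 to 93.2 CPM at 4 h, 106.4 CPM at 12 h and 182 to 206.4 CPM at 36 h. The PDGFRA row in this sum is shared with FIP1L1, so part of the sum may come from FIP1L1. Of the 3 tested 1, DCN, rose (log2 1.91, edgeR adjusted p = 0.00159), and CDH5 was at 0 fragments in all 11 libraries. The part of these markers in the members' changes was not tested either. Of the 10 epithelial markers 1 rose and 2 fell at 36 h against 0 h. In such bulk samples a gene expressed by more cells and a gene expressed more strongly per cell cannot be told apart. Without the first 36 h library the calls of DDX58 and IRF7 were lost, and without the second that of HERC5. Without either 4 h library further members rose, ISG15 and IFI27 among them, and some fell. The share of all genes that passed in those fits was not counted here. Scaling by library total alone lowered the median of all genes to -0.43, against -0.08 with TMM, and then 2 members rose and 5 fell. For that scaling too the share of all genes that passed was not counted.

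The direct comparison of late with early cells, 36 h against 4 h, has 2 libraries on each side. Of 30 members 5 rose (16.7%) and 8 fell (26.7%), against 18.8% and 20.5% of all genes, and the median member was at -0.09 beside -0.04 for all genes. Of the 8 that fell 7 were more than 2-fold lower at 36 h, and of the 5 that rose 2 were more than 2-fold higher. Both the 8 and the 7 include IFIT2, which reached 1 FPKM at 4 h alone, and CMPK2, which reached it at 4 h and 12 h alone. These genes were thus tested only through groups where they are high, which favours a fall at 36 h. The members lower at 36 h were GBP1, IRF1, IFIT5, OASL, CMPK2, IFIT1, IFIT2 and OAS3, and those higher were HERC5, IRF7, EIF2AK2, IFI44 and DDX60. This comparison shares its 4 h libraries with that of 4 h against 0 h, so the 2 are not independent. Of the 10 epithelial markers 6 fell and 1 rose in this comparison (median -0.86). There 2 of the 3 fibroblast and endothelial markers tested rose (median 1.75), DCN and KDR, of which KDR reached 1 FPKM at 36 h alone. Of the 3 immune markers tested 2 rose (median 1.10). Their part in the members' changes was not tested.

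GBP1 was lower at 36 h than at 4 h by a log2 change of -2.65 (SE 0.197, edgeR adjusted p = 7.91e-05), IRF1 by -1.74 (SE 0.22, edgeR adjusted p = 8.58e-04) and IFIT5 by -1.55 (SE 0.211, edgeR adjusted p = 0.0012). In the library values given above, the 36 h and 4 h libraries of these genes do not overlap. OASL was at -1.45 (SE 0.268, edgeR adjusted p = 0.00458), whereas HERC5 was higher by 1.44 (SE 0.245, edgeR adjusted p = 0.00318) and IRF7 by 1.20 (SE 0.228, edgeR adjusted p = 0.00498). The interferon regulatory factors IRF1 and IRF7 thus passed their tests in opposite directions.

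Of the IFIT genes, which bind viral RNA and act on its translation and sit side by side on chromosome 10, IFIT1, IFIT2 and IFIT5 fell at 36 h against 4 h and IFIT3 did not pass. IFIT1 had 2.7 CPM at 0 h, 4.51 and 5.18 at 4 h, 1.38 at 12 h, and 1.26 and 1.99 at 36 h, with a change of -1.64 (edgeR adjusted p = 0.00632). IFIT2 had 3.31 CPM at 0 h, 4.72 and 4.8 at 4 h, 2.12 at 12 h, and 1.84 and 1.99 at 36 h, with a change of -1.32 (edgeR adjusted p = 0.00737); it reached 1 FPKM in the 4 h libraries alone, and with no filter its adjusted p was 0.000379. For both, the 36 h and 12 h libraries lay under the 0 h library. IFIT3 had 6.9 CPM at 0 h, 12.3 and 13.3 at 4 h, 14.2 at 12 h, and 12.8 and 11.1 at 36 h, so its later libraries were all above 0 h, the 36 h and 4 h libraries overlapped, and none of its comparisons passed (log2 -0.09 at 36 h against 4 h, edgeR adjusted p = 0.735).

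Among the sensors, OAS3, which makes the oligoadenylates that activate RNase L, had 68.8 CPM at 0 h, 72.5 and 59.4 at 4 h, 112 at 12 h, and 45.8 and 41.3 at 36 h, and it fell at 36 h against 4 h (log2 -0.60, edgeR adjusted p = 0.0264). EIF2AK2 had 75.7 CPM at 0 h, 51.2 and 51.4 at 4 h, 62.5 at 12 h, and 78.8 and 77.7 at 36 h, and it rose (log2 0.61, edgeR adjusted p = 0.0145). EIF2AK2 was thus lowest in the 4 h libraries, where GBP1 was highest. IFI44 (log2 0.78, edgeR adjusted p = 0.0455) and the helicase DDX60 (log2 0.54, edgeR adjusted p = 0.0462) rose narrowly, and CMPK2 fell (log2 -1.03, edgeR adjusted p = 0.0347). ISG15 differed by 0.13 (SE 0.365, edgeR adjusted p = 0.803) and IFI27 by 0.99 (SE 0.408, edgeR adjusted p = 0.0889). The authors' deposited table called 6 members significantly lower (IFIT5, OAS3, OASL, GBP1, IRF1 and CMPK2) and 5 significantly higher (EIF2AK2, DDX60, HERC5, MX1 and IRF7) at 36 h against 4 h. How many of all genes it called was not counted here. Leaving out 1 library left 2 libraries against 1. Without the first 36 h library IFIT1, IFIT2, OAS3, EIF2AK2, DDX60, CMPK2 and IFI44 lost their calls. Without the second 36 h library OAS3, EIF2AK2, DDX60, CMPK2 and IFI44 lost theirs. The calls of DDX60 and CMPK2 were lost without the first 4 h library, and that of IFI44 without the second.

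**Figure D3:**
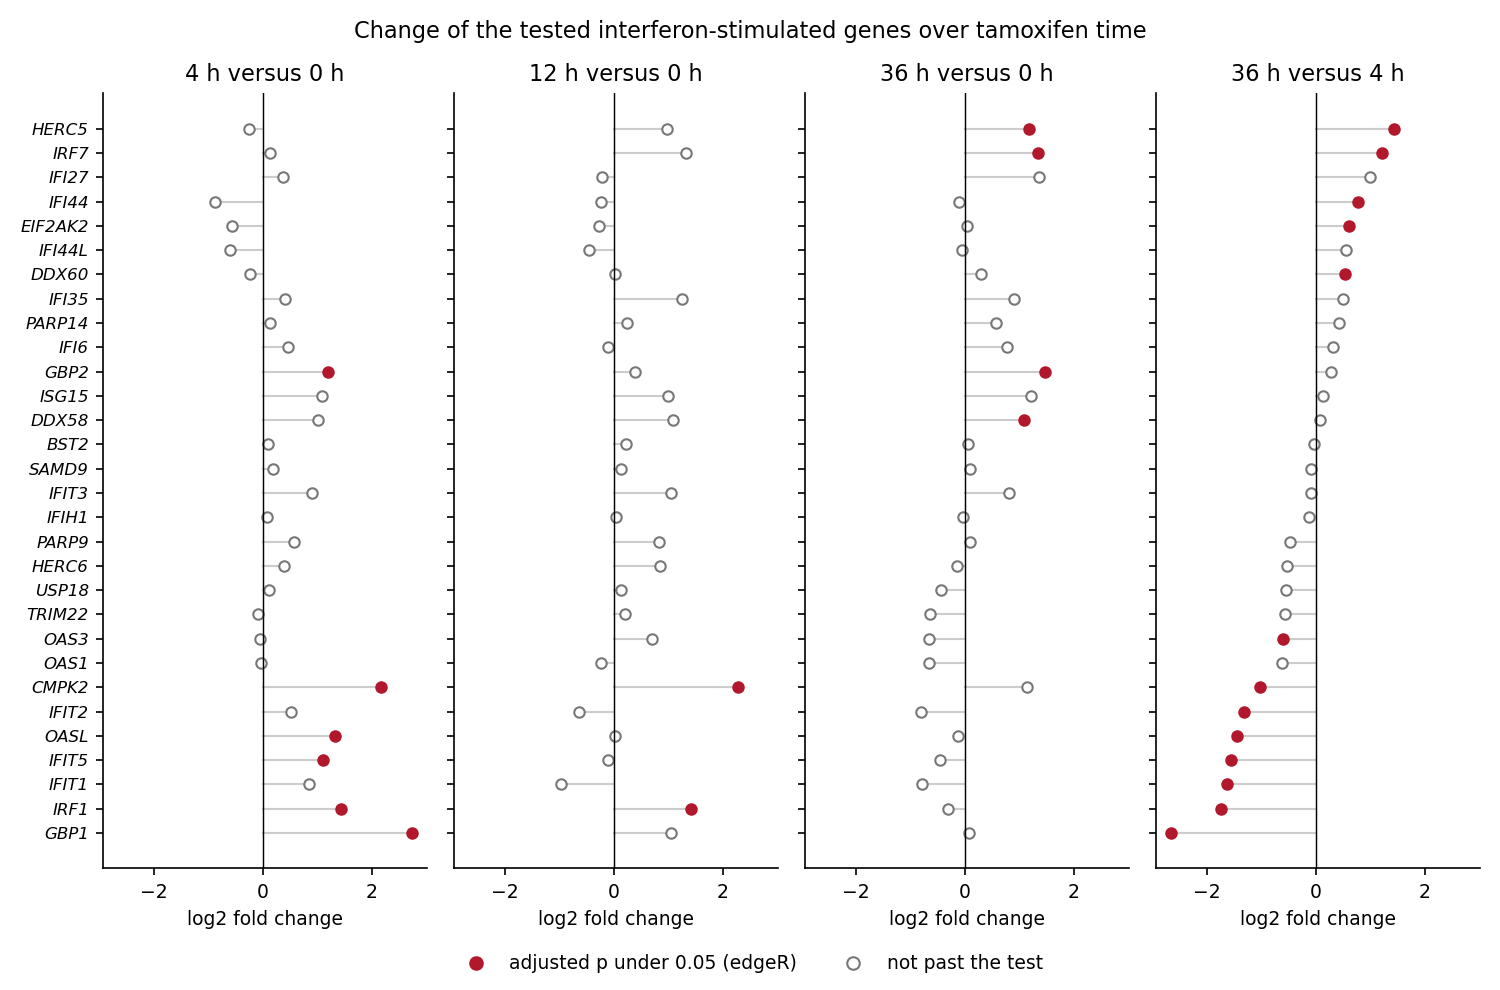
Log2 fold change of each of the 30 tested members in the 4 comparisons of the time course, with filled points past an edgeR adjusted p of 0.05 and open points not past it. GBP1 lies at 2.73 at 4 h against 0 h and at -2.65 at 36 h against 4 h, and HERC5 and IRF7 head the order at 36 h against 4 h.

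The remaining members of the time course passed in no comparison. Among them the surface protein BST2 stayed at 33.7 to 39.4 CPM in all 6 libraries, the RNA sensor IFIH1 (MDA5) at 17.3 to 21.2 CPM and the restriction factor SAMD9 at 60.6 to 79.7 CPM. USP18, which removes ISG15 and dampens type I receptor signalling, ranged between 6.07 and 12.6 CPM, with the lowest value at 36 h. PARP14 had the most fragments of any member, at 353 and 352 CPM at 36 h, against 238 CPM at 0 h (log2 0.57, SE 0.207, edgeR adjusted p = 0.0931).

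Transcripts of the interferons themselves were close to absent. Of 20 ligand rows 18 did not pass the filter in any tamoxifen comparison, IFNG, IL28A, IL28B and IL29 had 0 fragments in all 11 libraries, and IFNB1 had 3 at 0 h, 1 and 0 at 4 h, 1 at 12 h and 0 in both 36 h libraries. A count of 0 allows up to 3 fragments in a library, for counting error only. The exceptions were IFNE, an epithelial type I interferon, with 148 fragments at 0 h, 15 and 12 at 4 h, 16 at 12 h, and 25 and 11 at 36 h, and IFNK, a keratinocyte interferon, with 57, then 31 and 16, then 45, then 43 and 7. IFNE fell at 4 h against 0 h (log2 -2.02, SE 0.417, edgeR adjusted p = 0.0321), but it reached 1 FPKM in the 0 h library alone and so was tested only through the library where it is high, and IFNK passed in no comparison.

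Of the 4 receptor rows tested, IFNGR1, the ligand-binding chain for interferon gamma, was higher at 36 h both against 0 h (log2 1.10, edgeR adjusted p = 0.00725) and against 4 h (log2 0.50, edgeR adjusted p = 0.0332), and the others did not pass. Of the 5 transducers none passed at 4 h or 12 h, 2 rose and 0 fell at 36 h against 0 h, and 2 rose and 1 fell at 36 h against 4 h. At 36 h against 0 h, 9.99% of all genes rose and 9.36% fell. The shares at 36 h against 4 h were 18.8% and 20.5%. STAT2 had 45.6 CPM at 0 h, 60.7 and 66.8 at 4 h, 66.6 at 12 h, and 88.3 and 91.1 at 36 h. STAT2 was thus highest in the 36 h libraries: at 36 h against 4 h it rose (log2 0.49, edgeR adjusted p = 0.0351), and against 0 h both STAT2 (0.97, edgeR adjusted p = 0.0115) and JAK2 (1.11, edgeR adjusted p = 0.00897) rose.

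Among 8 tested genes listed as negative regulators, 2 rose at 4 h, 2 at 12 h and 3 at 36 h, each against 0 h. Of the list 0 fell, and its medians were 0.25, 0.58 and 0.81. The list includes UBA7, which activates ISG15 for conjugation and is not a negative regulator. Over all genes 3.15% rose at 4 h, 3.04% at 12 h and 9.99% at 36 h. SOCS3, which inhibits JAK kinases, had 14.3 CPM at 0 h, 222 and 294 at 4 h, 458 at 12 h, and 426 and 396 at 36 h. Every later library of SOCS3 was far above the 0 h library, and the log2 change was 4.17 at 4 h (edgeR adjusted p = 6.32e-04) and 4.84 at 36 h (edgeR adjusted p = 4.53e-05). SOCS1 had 0.0526 CPM (3 fragments) at 0 h, 0.156 and 0.339 at 4 h, 1.7 at 12 h, and 1.11 and 0.569 at 36 h, and it passed at 12 h and 36 h, having reached 1 FPKM only in the 12 h and first 36 h libraries, so the counts of this list include a gene tested only through groups where it is high. Of 13 genes of nucleic acid sensing, 0 passed at 4 h, 1 rose at 12 h and 2 at 36 h against 0 h, led by TMEM173, which encodes the adaptor STING, with 20 CPM at 0 h, 41.9 and 26.9 at 4 h, 129 at 12 h, and 133 and 141 at 36 h (log2 2.77 at 36 h, edgeR adjusted p = 7.94e-04).

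Of 14 antigen presentation genes 0 passed at 4 h, TAP1 alone rose at 12 h, and 6 rose at 36 h against 0 h, with 0 lower. Over all genes 3.15% rose at 4 h and 3.04% at 12 h, while 9.99% rose and 9.36% fell at 36 h. HLA-E had 283 and 266 CPM at 36 h, against 101 CPM at 0 h (log2 1.44, edgeR adjusted p = 0.00276), and B2M, the light chain of class I molecules, had 757 and 905 CPM at 36 h, against 383 CPM at 0 h (log2 1.12, edgeR adjusted p = 0.0099). The symbols of the HLA genes, TAP1, TAP2, TAPBP, PSMB8 and PSMB9 have several rows, for alternative haplotypes, so their values are uncertain. The row with the most fragments was used, which for TAP2 is shared with HLA-DOB, and HLA-B and HLA-C share one row. PSMB10 shares its row with CTRL. Of 32 further interferon-induced genes 3 rose at 4 h, 2 at 12 h and 10 at 36 h, and 4 fell at 36 h, all against 0 h, beside list medians of 0.37, 0.56 and 0.54. The exonuclease gene ISG20 had 36.6 and 38.9 CPM at 36 h, against 1.28 CPM at 0 h (log2 4.88, edgeR adjusted p = 6.31e-05), and IFITM1, which blocks viral entry, had 39 and 52.9 CPM at 36 h, against 8.09 CPM at 0 h (log2 2.50, edgeR adjusted p = 8.58e-04). The chemokine CXCL10 had 0.123 CPM at 0 h, 1.82 and 3.22 at 4 h, 0.283 at 12 h and 0 fragments in both 36 h libraries, a time course with its high values at 4 h like that of GBP1. Any place of CXCL10 in the counts of this list rests on those 4 h libraries, since it was low at every other time.

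In parental cells transduced with LINC00520, 6 of the 28 tested members rose (21.4%) and 10 fell (35.7%) against untransduced cells, where 25.2% of all 12790 genes tested rose and 24.8% fell. The changes were small: 1 member was more than 2-fold higher (IFI27) and 1 more than 2-fold lower (GBP2), and the median member was at -0.11, beside 0.00 for all genes. The summed level of the 36 members was 638.6 to 645.6 CPM in transduced cells and 675.1 to 684.7 CPM in untransduced cells. The members that fell were GBP2, TRIM22, OAS1, IRF1, OASL, PARP14, IFIT2, DDX60, IFIH1 and IFIT3, and those that rose were EIF2AK2, IFI27, IFIT5, HERC6, SAMD9 and GBP1.

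GBP2 had 5.68 and 4.5 CPM in transduced libraries, against 12, 11.8 and 13.6 CPM in untransduced ones. There was no overlap, and the change was -1.27 on the log2 scale (SE 0.107, edgeR adjusted p = 5.94e-10). GBP1, its neighbour on chromosome 1, moved the other way by a small amount, with 20.8 and 21.1 CPM in transduced libraries, against 18, 17.7 and 17.9 CPM in untransduced ones (log2 0.23, edgeR adjusted p = 0.00283). TRIM22 had 78.1 and 79.8 CPM in transduced libraries, against 98.9, 100 and 94.5 CPM in untransduced ones (log2 -0.31, SE 0.037, edgeR adjusted p = 1.81e-07).

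Of the oligoadenylate synthetase family, OAS1 had 11.1 and 11.2 CPM in transduced libraries, against 16, 16.1 and 16.5 CPM in untransduced ones (log2 -0.53, SE 0.0726, edgeR adjusted p = 1.5e-06). OASL had 2.26 and 2.99 CPM in transduced libraries, against 5.85, 4.03 and 4.98 CPM in untransduced ones (log2 -0.94, SE 0.171, edgeR adjusted p = 7.35e-05). Both were lower without overlap, while OAS3 had 83.8 and 84 CPM in transduced libraries, inside the untransduced range of 83.6 to 86.4 (edgeR adjusted p = 0.782). EIF2AK2 had 49.6 and 47.4 CPM in transduced libraries, against 39.6, 40.3 and 39 CPM in untransduced ones, and was higher without overlap (log2 0.29, SE 0.0478, edgeR adjusted p = 1.88e-05).

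IRF1 had 13 and 12.3 CPM in transduced libraries, against 17.4, 16.5 and 18.1 CPM in untransduced ones (log2 -0.45, SE 0.0722, edgeR adjusted p = 1.52e-05). IRF7 had 1.85 and 2.01 CPM in transduced libraries, against 2.2, 1.86 and 2.47 CPM in untransduced ones (log2 -0.16, SE 0.191, edgeR adjusted p = 0.502). Of these factors IRF1 was lower in both transduced libraries, and IRF7 overlapped between the groups. ISG15 also overlapped, with 2.22 and 2.9 CPM in transduced libraries, against 2.82, 3.1 and 2.73 CPM in untransduced ones (log2 -0.18, SE 0.167, edgeR adjusted p = 0.387).

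IFI27 had 1.48 and 0.981 CPM in transduced libraries, against 0.446, 0.266 and 0.309 CPM in untransduced ones, a 3.52-fold rise (log2 1.81, SE 0.34, edgeR adjusted p = 9.65e-05). The groups did not overlap, but the values rest on 36 and 22 fragments in transduced libraries, against 16, 8 and 7 in untransduced ones. The changes of the other members that passed lay between those of IFIT2 (-0.41, edgeR adjusted p = 0.00206) and HERC6 (0.33, edgeR adjusted p = 6.57e-04). IFIT3 and IFIT2 were lower (IFIT3 log2 -0.22, edgeR adjusted p = 0.0194) and IFIT5 higher (0.24, edgeR adjusted p = 4.19e-04), while IFIT1, with 5.64 and 4.9 CPM in transduced libraries, overlapped the untransduced values of 5.71, 5.63 and 4.19 CPM (edgeR adjusted p = 0.992). The authors' deposited table called 7 of the members significant, EIF2AK2, HERC6 and IFI27 higher (3) and OAS1, OASL, GBP2 and TRIM22 lower (4). How many of all genes it called was not counted here.

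**Figure D4:**
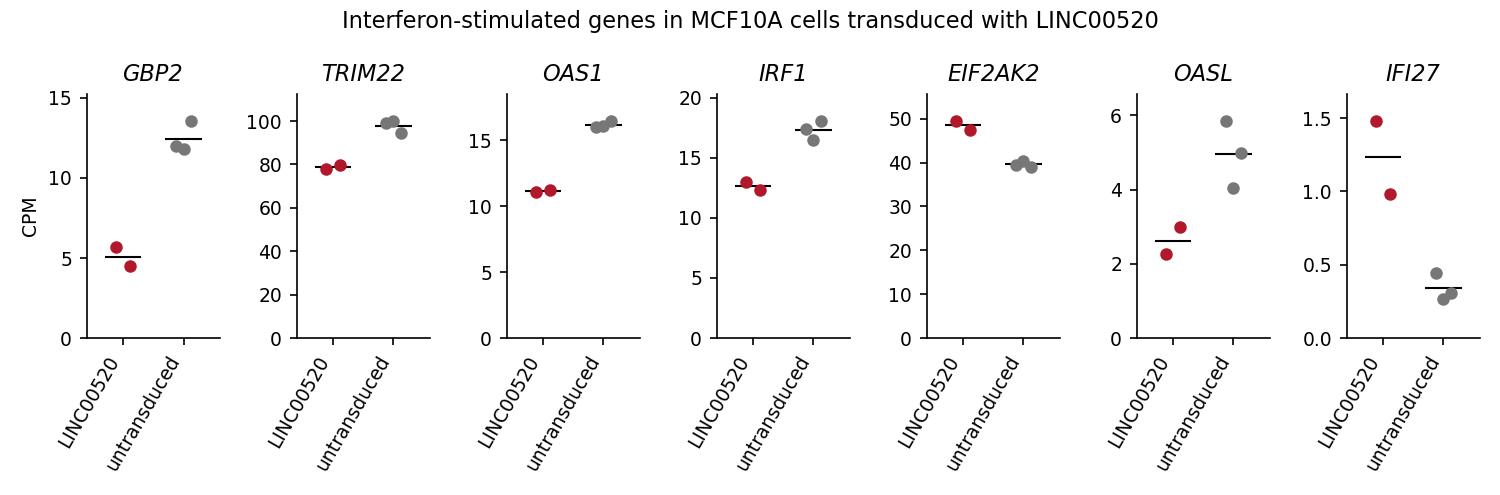
CPM of the 7 members with the smallest edgeR adjusted p in LINC00520-transduced and untransduced MCF10A cells, with each point 1 library and the bar at the mean. GBP2 has 5.68 and 4.5 CPM in transduced cells, against 11.8 to 13.6 CPM in untransduced cells. The panels were picked by adjusted p, so separation of the groups in them follows from that choice.

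Of the calls after transduction 3 were lost in fits that each left out 1 library. IFIT3 lost its call without the first untransduced library (edgeR adjusted p = 0.0868), the first transduced (0.0665) or the second transduced (0.122). IFIH1 lost it without the third untransduced (edgeR adjusted p = 0.0674) or the second transduced library (0.102) and with replicate numbers as a block (0.0877), and DDX60 lost it without the second transduced library (0.0649).

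Upstream genes in transduced cells also changed by small amounts in both directions. No interferon ligand row passed the filter, with 0 to 7 fragments in any library. Of 4 receptor rows 3 were lower and 0 higher, IFNGR1 with 94.3 and 86.2 CPM in transduced libraries, against 117, 122 and 118 CPM in untransduced ones (log2 -0.40, edgeR adjusted p = 7.01e-09). The others were IFNGR2 (log2 -0.27, edgeR adjusted p = 1.33e-07) and the row shared by IFNAR2 and IL10RB (log2 -0.17, edgeR adjusted p = 0.00435). Of the 5 transducers 1 rose and 1 fell, and STAT2 was the lower, by a log2 change of -0.22 (edgeR adjusted p = 0.00216). Of 14 antigen presentation genes 1 rose and 5 fell, led by TAP2 (log2 0.33), TAPBP (-0.32) and PSME1 (-0.24), and of 29 further interferon-induced genes 6 rose and 9 fell, led by LY6E (log2 -0.43), PNPT1 (0.28) and TRIM25 (-0.25). Both lists had a median of -0.04 against 0.00 for all genes. Of 12 sensing genes 4 rose and 2 fell, and of 7 genes from the negative regulator list 1 rose and 2 fell. All these counts stand beside 25.2% of all genes that rose and 24.8% that fell.

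Epithelial markers differed between these groups as well: KRT14 was higher (log2 1.44, edgeR adjusted p = 8.91e-17) and EPCAM (-0.74, edgeR adjusted p = 2.39e-13) and KRT8 (-0.70, edgeR adjusted p = 1.19e-14) lower, with the summed level of the 10 markers at 9789 to 10100 CPM in transduced and 9439 to 9697 CPM in untransduced cells. The immune marker sum was 26.6 to 27.4 CPM in transduced and 29.2 to 30.2 CPM in untransduced cells. Within it CD14 had 7.08 and 6.51 CPM in transduced libraries, against 9.25, 11.6 and 10 CPM in untransduced ones. HBB went the other way, with 13 and 15 fragments in transduced libraries, against 3, 0 and 0. It passed the filter only through the transduced group. The fibroblast and endothelial sum was 101 to 102.5 CPM in transduced and 101.5 to 105.6 CPM in untransduced cells. Of this, the row shared by PDGFRA and FIP1L1 held 64.3 to 64.7 CPM in transduced and 62.8 to 66.8 CPM in untransduced cells. The part of these marker differences in the members' changes was not tested.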

How the data were processed

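PolyA RNA of 13 samples was sequenced, and 11 libraries were matched to columns by name; 7 further columns of the over-expression table matched no label and were not used. Per the submitters' processing notes, CASAVA 1.4, TopHat and Cuffdiff were used with hg19, in roles and with parameters not given in the sources used here. The authors deposited per gene and library estimated counts of fragments, which need not be whole, and FPKM values. The authors' calls table gives a q-value, a significance flag and a log2 fold change per comparison; in the time-course table the deposited fold column exceeds any log2 range, so it is treated here as a score of which nothing but the sign was used. Estimated counts were rounded and tested with edgeR 4.0.16 (quasi-likelihood, TMM, R 4.3.3), 1 coefficient per group, in genes with Cuffdiff status OK in every library and at least 1 FPKM in 2 libraries (over-expression) or 1 library (time course), with an adjusted p threshold of 0.05. No strand setting is stated, so reads of genes overlapping on opposite strands cannot be told apart. CPM values include the TMM factor. Replicates had a common coefficient of variation of 0.0249 on 3 residual degrees of freedom in the over-expression experiment and 0.162 on 2 in the time course, so smaller changes pass in the over-expression experiment. Alternatives were DESeq2 1.42.0, RLE factors, scaling by library total alone, limma 3.58.1 on log2(FPKM + 1) and on log2(FPKM + 0.1), 2 other filters, leaving out each replicate, and a replicate block. Scripts were tested on simulated data. Every member is accounted for: members past the test are named, and up to 6 of these per comparison, with the smallest adjusted p, and IRF1, IRF7, ISG15 and IFI27 have every library's value; from other lists up to 3 genes past the test, and STAT2, were named. Beyond that rule, RSAD2, MX1, BST2, IFIH1, SAMD9, USP18, PARP14, IFIT1, IFIT2, IFIT3, OAS3, EIF2AK2, IFNK, SOCS1 and CXCL10 were described after their values were seen. Some genes of the other lists are not reported here. The members and lists were chosen with earlier results of these data known.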

Additional observations from a re-analysis of the deposited data

How the results depend on the processing

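Of the 41 calls on members, 21 held in every alternative run and 0 changed sign; DESeq2 kept 37 of 41, RLE factors 41, filterByExpr and no filter 39 each, scaling by library total alone 32, and either form of limma on FPKM 28. In the LINC00520 comparison no count moved by over 1.5 times. The members that rose numbered, at 4 h against 0 h (6), 3 with library totals alone and 1 with either limma; at 12 h against 0 h (2), 1 with library totals, 4 with DESeq2, 0 with either limma and 7 with no filter; at 36 h against 0 h (4), 2 with library totals and with either limma and 9 with no filter; and at 36 h against 4 h (5), 2 with library totals and 3 with limma on log2(FPKM + 0.1). The members that fell at 36 h against 0 h (0) numbered 5 with library totals and 1 with no filter. Leaving out 1 library gave 7 to 10 members that rose and 0 to 2 that fell at 4 h, 2 to 11 that rose at 12 h, 2 to 10 that rose and 0 to 3 that fell at 36 h against 0 h, and 2 to 8 that rose and 4 to 11 that fell at 36 h against 4 h; the cause was not tested. Values that turned in sign, none of them past a test, were those of ISG15 and IFI27. After transduction ISG15, at -0.18 in the main fit, turned to 0.0041 without the first transduced library. Without the second it kept its sign, at -0.38. IFI27 turned at 4 h (-1.80 and -2.04) and 12 h (0.76 and 0.78) with limma on log2(FPKM + 1) and log2(FPKM + 0.1). At 36 h against 4 h ISG15 was at 0.13 in the main fit and at 0.55 without the second 4 h library. It turned to -0.12 with library totals, -0.17 without the first 4 h library and -0.11 without the second 36 h library. Replicate numbers did not pair the libraries (correlations of same-numbered deviations -0.0516 and -0.0466 in the over-expression experiment and 0.0982 in the time course); with the replicate block 28 of 29 calls held, with 6 higher and 9 lower after transduction and 6 higher and 8 lower at 36 h against 4 h. With 1 library at 0 h and at 12 h, and under 40 fragments of IFI27 in every library, those values are the least certain.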
